A study of Mus musculus with 12 samples.

Results

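The 37 genes described here encode the enzymes of glycolysis, 3 glucose transporters, regulators of glucose use, and a group of transcripts known to respond to low oxygen. They were chosen by gene symbol, with earlier results of these data known, and are 37 of the 22294 genes in the deposited expression table. Each of them was found, and Aldoa has a second row that stayed at or below 0.07 FPKM and is not used. RNA was sequenced from the macrophage fraction of mouse endometrium, F4/80+ cells held back with magnetic beads after digestion. There were 12 libraries in 4 groups, 3 in each. The IUA+primed MSCs mice carried a model of intrauterine adhesion (IUA), in which scar tissue joins the uterine walls, and were treated with mesenchymal stromal cells (MSCs) primed with inflammatory cytokines. The IUA+control MSCs mice carried the same model and were treated with control MSCs. The series title names these cells hUC-MSCs, the usual short form for human umbilical cord MSCs. The IUA mice carried the model alone, and Sham mice had a sham operation. The IUA libraries are the ones that also carry the name Matrigel, and the labels do not say whether that gel was part of the model or stood in for the cells. Which cytokines were used, the cell dose, the time of collection, the mouse strain and the mouse age are not given in the sources used here. The labels do not say whether a library came from 1 mouse or from a pool, so each p-value reflects only how far these libraries spread, which may be technical.

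Hexokinases trap glucose in the cell by phosphorylation, and the enzymes that follow turn it into pyruvate, which lactate dehydrogenase converts to lactate. The transcription factor subunit HIF1A is marked for destruction by prolyl hydroxylases when oxygen is present, and without oxygen it pairs with ARNT and raises many glycolytic genes. Macrophages are known to rely more on glycolysis when activated by inflammatory signals, and much of the control of HIF1A is on the protein, which RNA does not show.

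Levels are given in FPKM as deposited by the authors, a unit that divides the fragments of a gene by its transcript length and by the size of the library, and the depth of the libraries is unknown. The macrophage markers (11 genes, none at 0) summed to 25710 to 28370 FPKM in IUA+primed MSCs, 27290 to 29610 in IUA+control MSCs, 24570 to 26350 in IUA and 9217 to 11630 in Sham. The uterine epithelium markers (18 genes, none at 0) summed to 1615 to 2528, 1611 to 4047, 1663 to 5494 and 8303 to 14420 FPKM in the same groups, and 17 of 17 tested fell in IUA against Sham. In that comparison 8 of 9 endothelial, 4 of 6 smooth muscle, 3 of 8 stromal and 3 of 3 erythroid markers fell, 6 of 8 neutrophil markers rose, and 0 of 2 eosinophil markers passed. Of 11 genes induced by tissue dissociation, 1 rose and 6 fell. Of all tested genes 11.1% rose and 45.0% fell there, so the lower stromal and dissociation counts were not far from the table. The labelled cell type therefore has its markers in every group, while the Sham libraries hold less macrophage and more epithelial RNA. In bulk RNA fewer cells of a type and less RNA per cell cannot be told apart. The libraries also followed the GC content of transcripts to different degrees. The Spearman correlation across genes was 0.145 to 0.219 in IUA+primed MSCs, -0.491 in IUA replicate 3 and -0.148 and -0.184 in the other IUA libraries. Transcripts of the 37 genes had a median GC content of 53.5%, against 50.6% for all tested genes.

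The bases before the start sites were read for 1 sequence feature. The list names genes known to respond to low oxygen, so its share of matches is not independent of how it was chosen. The core of the element bound by HIF complexes is ACGTG or GCGTG, and both were searched on both strands in the 250 bases before each start site in RefSeq (build GRCm38.p6). On the opposite strand these read CACGT and CACGC, and a palindrome of the first form counts at 2 positions. Of 35 genes with a window, 31 (88.6%) held at least 1 match, against 41.5% of 27025 genes, and 78.4% of their 51 windows held one, against 38.6% of 32851 windows. The windows of these genes also had a higher median GC content, 60.8% against 52.4%. Gpi1, Tpi1, Eno2 and Car12 held no match. Slc2a3 and Ndrg1 were not matched. A match is a run of letters and not evidence of binding. The windows below belong to members on which the results turn. They are given on the strand of the gene, with matches in capitals. Hk3 (chr13:55021386-55021635, minus strand), the hexokinase that separates the groups, held 1 match. Pgk1 (chrX:106186850-106187099, plus strand), with the smallest p against Sham, held 2. Slc2a6 (chr2:27027999-27028248, minus strand), a transporter that rose, held 4 matches of the second form, and Bnip3 (chr7:138909507-138909756, minus strand) held 5, among them the palindrome. Egln3 (chr12:54203875-54204124, minus strand), a prolyl hydroxylase, held 1. Car12 (chr9:66713436-66713685, plus strand), which fell in IUA, is shown as a window without a match. In IUA against Sham matches were held by 14 of 15 genes with a window that rose, 4 of 5 that fell and 13 of 15 that did not pass. With a match in 31 of 35 genes, these counts could hardly differ by direction.
Hk3: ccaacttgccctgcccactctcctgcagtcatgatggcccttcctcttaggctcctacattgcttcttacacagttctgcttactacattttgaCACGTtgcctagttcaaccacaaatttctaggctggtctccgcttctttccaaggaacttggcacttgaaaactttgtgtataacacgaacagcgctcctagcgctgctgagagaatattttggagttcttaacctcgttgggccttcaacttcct
Pgk1: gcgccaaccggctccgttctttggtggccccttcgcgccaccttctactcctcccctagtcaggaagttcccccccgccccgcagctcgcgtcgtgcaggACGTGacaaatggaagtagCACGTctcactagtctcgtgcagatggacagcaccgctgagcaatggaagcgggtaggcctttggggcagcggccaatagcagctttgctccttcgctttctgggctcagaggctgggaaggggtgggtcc
Slc2a6: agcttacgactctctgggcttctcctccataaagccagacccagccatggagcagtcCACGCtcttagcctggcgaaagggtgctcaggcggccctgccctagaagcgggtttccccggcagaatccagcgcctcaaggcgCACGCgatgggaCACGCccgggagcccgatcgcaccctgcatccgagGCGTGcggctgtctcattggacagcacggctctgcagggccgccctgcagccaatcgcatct
Bnip3: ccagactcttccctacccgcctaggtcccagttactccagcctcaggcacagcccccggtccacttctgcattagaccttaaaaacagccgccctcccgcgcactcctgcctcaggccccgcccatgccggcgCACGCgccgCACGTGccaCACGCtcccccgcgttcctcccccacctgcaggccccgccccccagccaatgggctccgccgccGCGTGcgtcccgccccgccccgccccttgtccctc
Egln3: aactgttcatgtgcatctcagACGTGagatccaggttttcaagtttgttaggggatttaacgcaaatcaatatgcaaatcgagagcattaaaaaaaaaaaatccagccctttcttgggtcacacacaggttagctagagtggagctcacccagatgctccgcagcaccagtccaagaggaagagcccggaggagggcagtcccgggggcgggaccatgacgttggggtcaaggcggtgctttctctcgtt
Car12: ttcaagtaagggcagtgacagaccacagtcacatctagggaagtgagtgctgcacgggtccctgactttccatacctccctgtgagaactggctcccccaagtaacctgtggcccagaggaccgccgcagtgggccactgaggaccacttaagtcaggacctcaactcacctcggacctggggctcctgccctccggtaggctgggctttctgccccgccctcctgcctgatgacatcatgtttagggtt

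**Figure D1:**
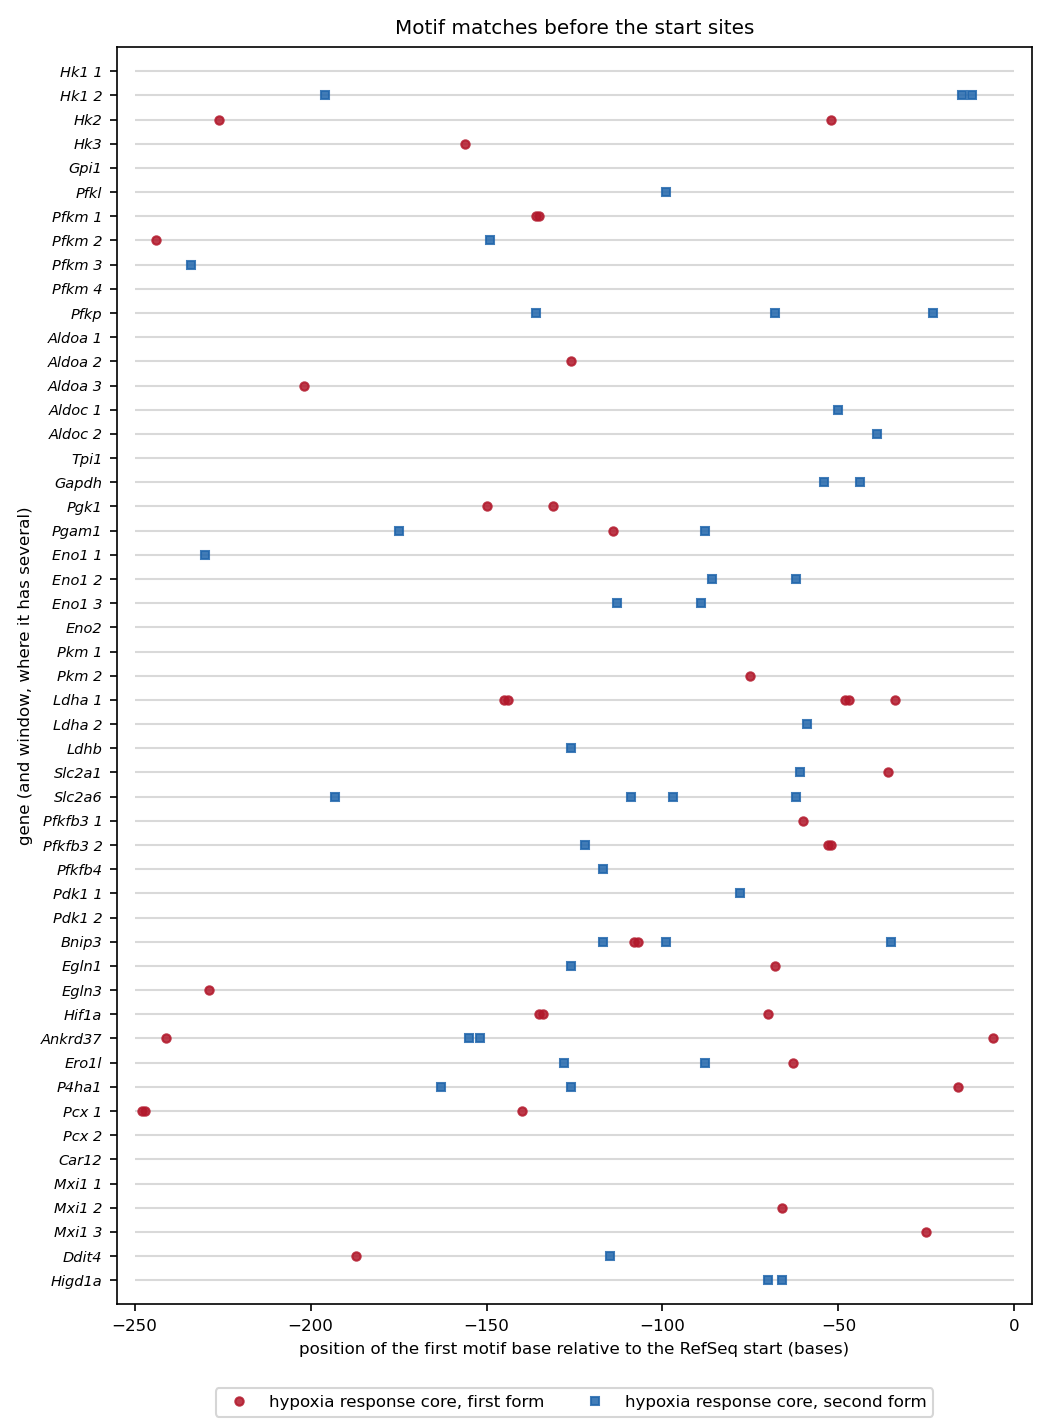
Position of each match to the hypoxia response core before the RefSeq start of 35 genes, in bases, 1 line per window (51 windows, some of which overlap). Circles are the first form (ACGTG) and squares the second form (GCGTG), on either strand. Matches are seen in 31 of the 35 genes, at scattered distances.

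All 37 genes passed the filter of 1 FPKM in at least 3 libraries, and 33 reached 1 FPKM in every library. By mean FPKM over the 12 libraries the most abundant were Aldoa (954), Eno1 (763), Ldha (661), Pkm (624) and Gapdh (399), and the scarcest was the neuronal enolase Eno2 (0.904). The FPKM of the 18 glycolytic enzymes and lactate dehydrogenases summed to 4875 to 5192 in IUA+primed MSCs, 4423 to 5429 in IUA+control MSCs, 3258 to 4892 in IUA and 2736 to 2989 in Sham. Every library with the adhesion model was above every Sham library in that sum. As a share of the FPKM total of its library the sum was 0.578% in IUA replicate 3, against 0.519%, 0.575% and 0.591% in the Sham libraries, so that IUA and Sham overlapped on that scale. By the moderated F test of limma 29 of 37 genes differed among the 4 groups at a Benjamini-Hochberg adjusted p under 0.05, and 67.0% of all tested genes did so. The 8 others were Pfkl, Eno2, Ldha, Slc2a1, Pfkfb3, Pfkfb4, Ankrd37 and Higd1a.

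Against Sham, more of these genes rose than fell, while more of all tested genes fell than rose. The list was chosen with earlier results of these data known, so this contrast describes the list and tests nothing. Of the other glycolysis and hypoxia genes given below, more fell than rose in IUA against Sham. In IUA against Sham, which asks what the adhesion model did to the sorted cells, 15 rose, 7 fell and 15 did not pass. Over all 11604 tested genes 11.1% rose, 45.0% fell and 56.2% passed in either direction. The groups did not overlap in 23 of the 37 genes, and in 59.6% of all tested genes. In IUA+control MSCs against Sham 20 rose and 8 fell, where 14.1% of all tested genes rose, 42.7% fell and 56.8% passed, and 31 did not overlap (66.7% of all tested genes). In IUA+primed MSCs against Sham 20 rose and 6 fell, where 14.5% rose, 45.0% fell and 59.5% passed, and 29 did not overlap (68.1%). The median log2 change of the 37 genes was 0.58 in IUA+primed MSCs, 0.54 in IUA+control MSCs and 0.27 in IUA against Sham, beside -0.33, -0.30 and -0.35 for all tested genes. These comparisons share the Sham libraries. Hk3, Gpi1, Pfkp, Gapdh, Pgk1, Pgam1, Eno1, Slc2a6, Pdk1, Bnip3, Egln3, Ero1l, P4ha1 and Mxi1, 14 genes, rose in each of the 3 comparisons. Hk1, Pfkm, Slc2a3 and Pcx, 4 genes, fell in each, and 0 genes rose in one and fell in another. The share of all tested genes called in all 3 comparisons was not counted, so these counts have no background beside them. Scaling each library by its median ratio moved the median of all genes in IUA against Sham to -0.09 and the share of calls that were higher to 41.6%, against 19.8% as deposited, and gave 21 of these genes higher and 4 lower. With the mean of the epithelial markers as a covariate only 3 (Pgk1, Bnip3 and Mxi1) rose in IUA and 0 fell, and among all tested genes 203 rose and 156 fell. The median log2 change of the 37 genes under the covariate was 0.24, against 0.27 without it, and that of all tested genes was -0.26, against -0.35. Some changes that lost their call kept their size, such as Ero1l (1.82 with the covariate), Gpi1 (0.83) and Egln3 (1.12), and others were smaller, such as Hk3 (0.29), Slc2a3 (-0.77) and Pcx (-1.15). The epithelial markers themselves separate Sham from the other groups.

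**Figure D2:**
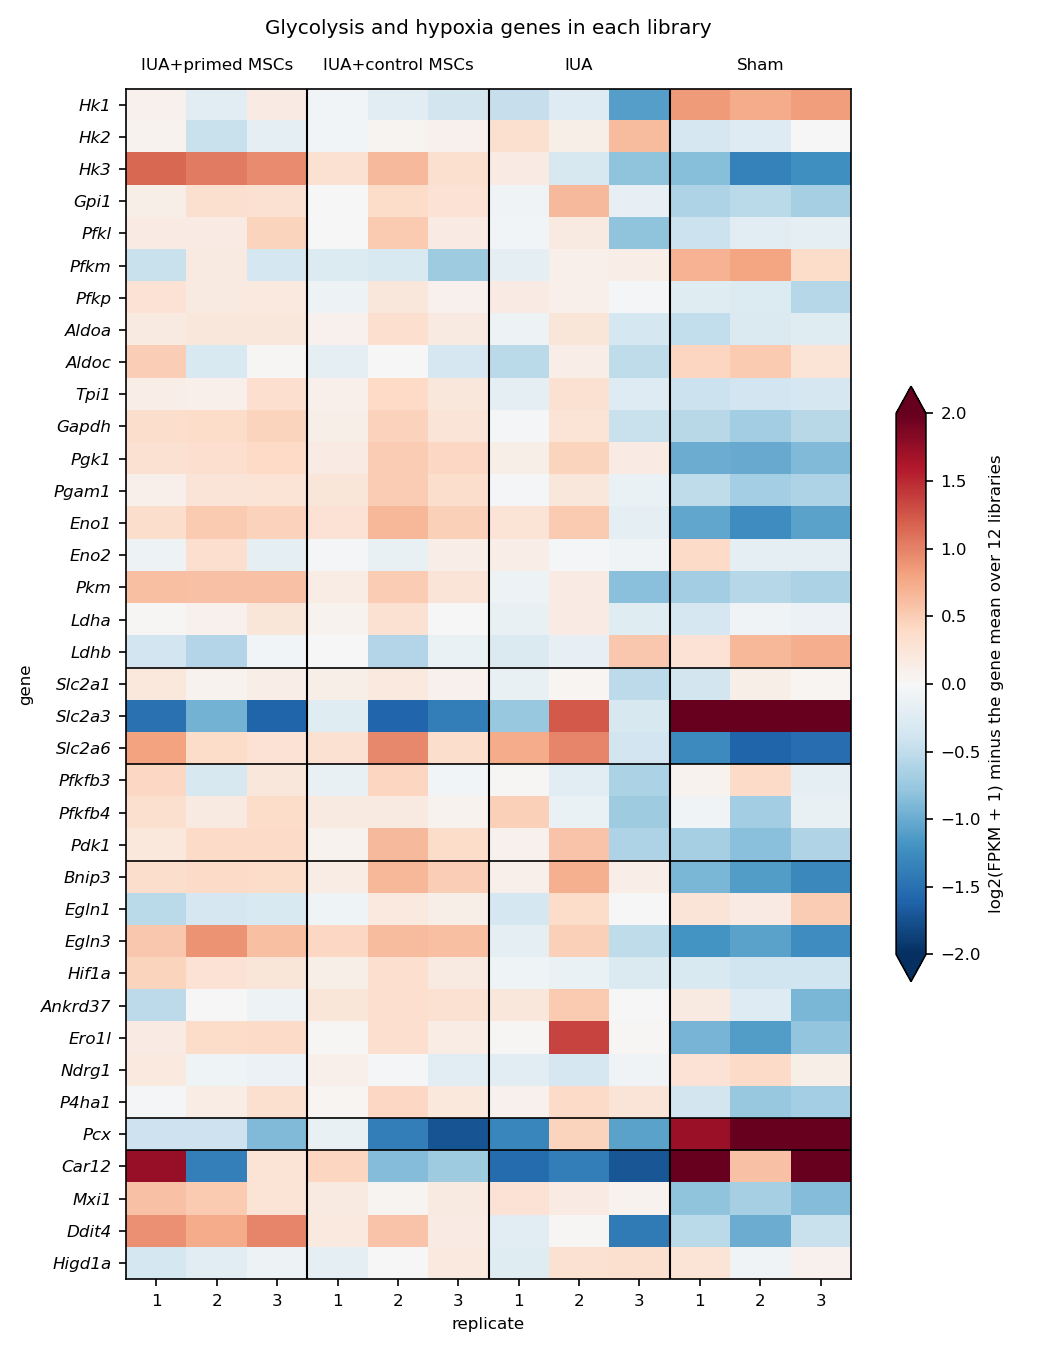
Level of each of the 37 genes in each of the 12 libraries, as log2(FPKM + 1) minus the mean of that gene over the libraries, with the colour scale ending at 2 in either direction. Columns are replicates 1 to 3 of each group, and horizontal lines separate groups of genes by role. Slc2a3 and Pcx are highest in Sham, Hk3 is highest in IUA+primed MSCs, and IUA replicate 2 is high for Slc2a3, Gpi1 and Ero1l.

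The 3 hexokinases went separate ways. Hk3 (chromosome 13, 55005985 to 55021385 on mm10), the form typical of myeloid cells, had 72.2, 67.1 and 62.4 FPKM in IUA+primed MSCs, 39.6, 50.8 and 40.15 in IUA+control MSCs, 35.85, 25.6 and 18.0 in IUA and 17.2, 11.9 and 13.2 in Sham. No library of one group reached into the next, so that the 4 groups stood in a single order. Hk3 rose in IUA against Sham (by 0.83 ± 0.21, SE, on the log2 scale, limma adjusted p = 0.00554), in IUA+primed MSCs against IUA (1.36 ± 0.21, adjusted p = 0.00199) and in IUA+primed MSCs against Sham (2.19 ± 0.21, adjusted p = 1.16e-05). IUA+control MSCs against IUA (0.74 ± 0.21, adjusted p = 0.105) and IUA+primed MSCs against IUA+control MSCs (0.62 ± 0.21, adjusted p = 0.259) did not pass, although the groups did not overlap. Log2 changes are on the scale of log2(FPKM + 1), which understates changes of scarce genes. Without IUA replicate 1, Hk3 passed in IUA+control MSCs against IUA (0.98, adjusted p = 0.0293).

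Hk1 (chromosome 10, 62268855 to 62379908), the broadly expressed form that can bind mitochondria, had 11.95, 9.61 and 12.7 FPKM in IUA+primed MSCs, 10.8, 9.5 and 8.51 in IUA+control MSCs, 7.91, 9.26 and 4.72 in IUA and 21.15, 19.6 and 20.8 in Sham. Sham libraries were far above all others. Hk1 fell in IUA against Sham (-1.42 ± 0.19, limma adjusted p = 1.79e-04), and it rose in IUA+primed MSCs against IUA (0.62 ± 0.19, adjusted p = 0.0425). This second call was close to the threshold and ended in 12 of 21 alternative settings, among them the replicate block (adjusted p = 0.0552), the compared groups alone (0.111) and the omission of any 1 Sham or IUA+primed MSCs library, of IUA replicate 3 or of IUA+control MSCs replicate 2 or 3 (up to 0.124). Hk2 (chromosome 6, 82725025 to 82774454), the inducible form and a known HIF target, had 15.7, 10.65 and 13.0 FPKM in IUA+primed MSCs, 14.2, 15.5 and 15.8 in IUA+control MSCs, 18.85, 16.1 and 23.65 in IUA and 11.5, 12.2 and 14.8 in Sham. Every IUA library was above every other library. Hk2 rose in IUA against Sham (0.56 ± 0.16, limma adjusted p = 0.0115) and fell in IUA+primed MSCs against IUA (-0.54 ± 0.16, adjusted p = 0.0372). The fall ended as a call with no filter, with TPM scaling and in a fit to the compared groups alone. It also ended without Sham replicate 2, without IUA replicate 1 or 3, and without replicate 2 or 3 of either treated group.

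As shares of the summed hexokinase FPKM, Hk3 held 72.3%, 76.8% and 70.8% in IUA+primed MSCs, 61.3%, 67.0% and 62.3% in IUA+control MSCs, 57.3%, 50.2% and 38.8% in IUA and 34.6%, 27.3% and 27.0% in Sham. The share of Hk1 averaged 12.5% in IUA+primed MSCs, 14.2% in IUA+control MSCs, 13.7% in IUA and 43.3% in Sham. That of Hk2 averaged 14.2%, 22.3%, 37.6% and 27.1% in the same groups. An exact permutation test of the shares over the 4 groups (n = 3 each) gave an adjusted p of 2.60e-04 over 8 enzyme families, from the smallest p it can give (6.49e-05). A share within a library does not change with the scaling of that library. It can change with the mix of cells, and the shares of no family were tested with the epithelial covariate. With that covariate Hk1 (-1.10, limma adjusted p = 0.084) and Hk3 (0.29, limma adjusted p = 0.6) did not pass in IUA against Sham.

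**Figure D3:**
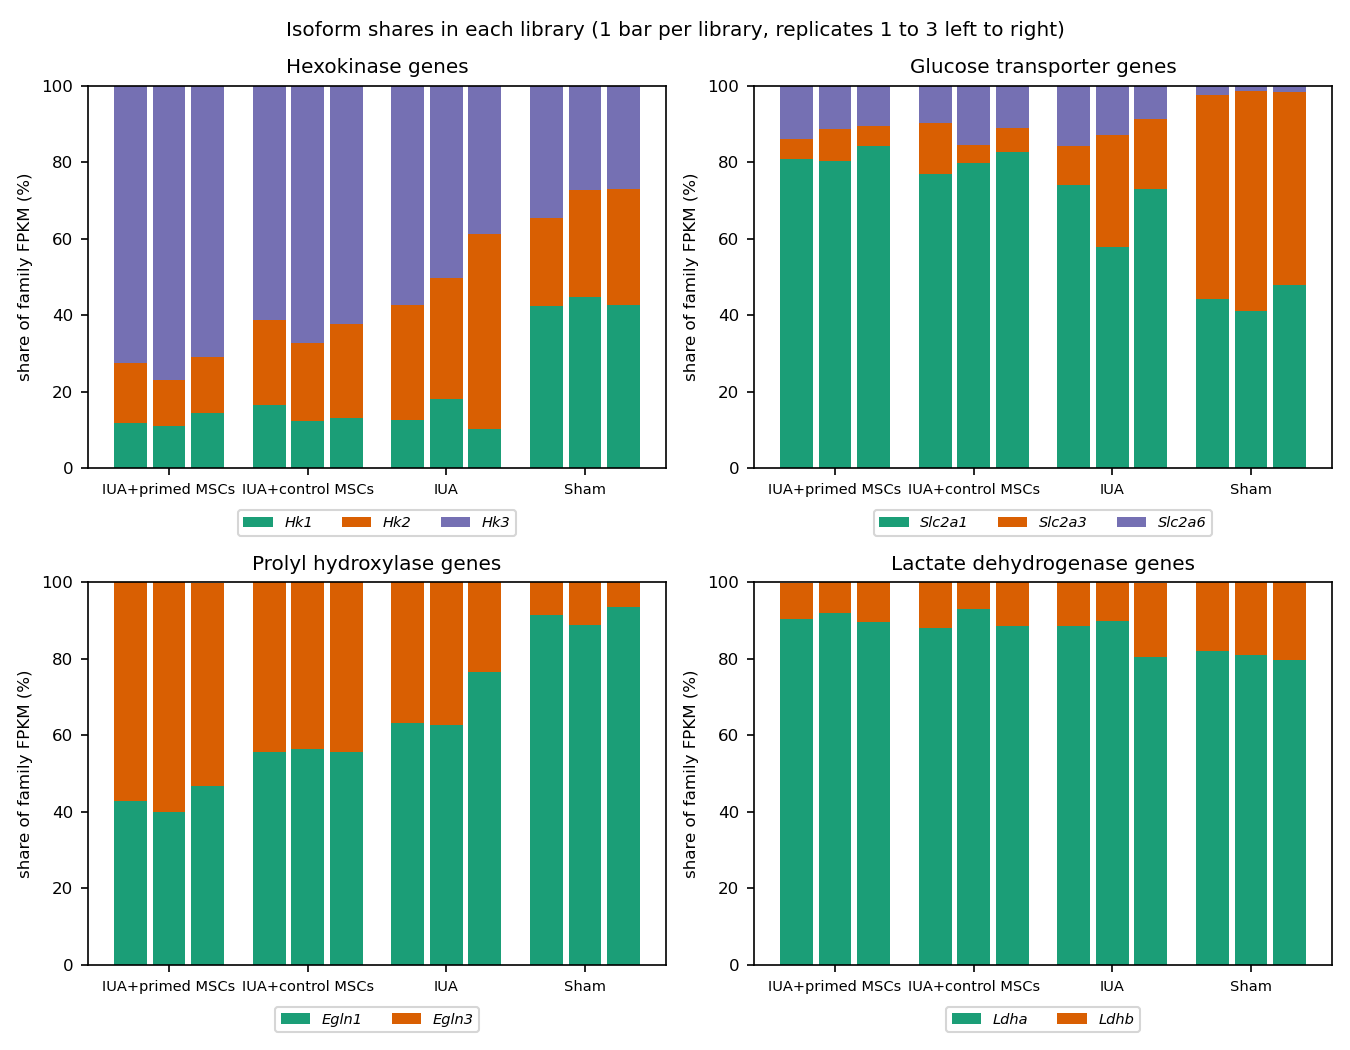
Share of each gene in the summed FPKM of its family, in percent, 1 stacked bar per library and 3 bars per group. Hk3 takes 70.8% to 76.8% of hexokinase FPKM in IUA+primed MSCs and 27.0% to 34.6% in Sham, Slc2a3 and Egln1 are largest in Sham, and Ldha takes most of the lactate dehydrogenase FPKM in every library.

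From glucose phosphate to pyruvate, Gpi1 (phosphoglucose isomerase), Pfkp (platelet-type phosphofructokinase), Gapdh, Pgk1 (phosphoglycerate kinase), Pgam1 (phosphoglycerate mutase) and Eno1 (enolase) rose in all 3 comparisons with Sham. Aldoa, Tpi1 and Pkm rose in IUA+primed MSCs and in IUA+control MSCs against Sham and did not pass in IUA against Sham. Gapdh averaged 501 ± 16.6 FPKM in IUA+primed MSCs, 467 ± 57.9 in IUA+control MSCs, 372 ± 89.6 in IUA and 253 ± 14.3 in Sham (SD, n = 3 each). Aldoa, the aldolase that splits the sugar, averaged 1089 ± 22.3, 1079 ± 93.9, 906 ± 192 and 742 ± 64.0 FPKM in the same groups. The IUA libraries were the most spread for both. Means in that order were 99.8, 98.4, 95.6 and 54.8 FPKM for Gpi1, 60.9, 55.0, 55.1 and 40.5 FPKM for Pfkp, and 184, 190.3, 158 and 123 FPKM for Tpi1, the triose phosphate isomerase.

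Pgk1 (chromosome X, 106187100 to 106203699), which makes the first ATP of the pathway, had 176, 179 and 188 FPKM in IUA+primed MSCs, 159, 203 and 190.2 in IUA+control MSCs, 155, 193 and 159.8 in IUA and 71.15, 69.85 and 76.5 in Sham. The Sham libraries were the low ones and the 3 other groups overlapped. The log2 change was 1.21 ± 0.11 in IUA against Sham (limma adjusted p = 1.81e-05), and it stayed called with the epithelial covariate (1.19, adjusted p = 0.0109).

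Eno1 (chromosome 4, 150236721 to 150248879) had 885, 1003 and 959 FPKM in IUA+primed MSCs, 846, 1099.5 and 962 in IUA+control MSCs, 837, 996 and 604 in IUA and 338, 291 and 331 in Sham. Again the Sham libraries stood below the rest (IUA against Sham 1.31 ± 0.16, limma adjusted p = 1.14e-04). Eno1b, a near copy from which reads may not be separable, was listed at 0.67 to 2.41 FPKM. Pgam1 had 154, 172 and 173 FPKM in IUA+primed MSCs, 169.9, 204 and 183 in IUA+control MSCs, 139.9, 167 and 131 in IUA and 101, 89.2 and 93.4 in Sham. The Sham libraries were again the lowest, and it rose in IUA+control MSCs against Sham (0.96 ± 0.11, limma adjusted p = 4.60e-05).

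Pkm (chromosome 9, 59656368 to 59679375), a pyruvate kinase that forms pyruvate, was highest in IUA+primed MSCs. It had 891, 879.9 and 879 FPKM in IUA+primed MSCs, 646, 829 and 704 in IUA+control MSCs, 544, 655 and 327 in IUA and 359.9, 395 and 375 in Sham. The IUA+primed MSCs libraries lay above all others, and IUA replicate 3 lay below Sham. Pkm rose in IUA+primed MSCs against IUA (0.85 ± 0.20, limma adjusted p = 0.0126), with 0.56 (adjusted p = 0.0134) without IUA replicate 3. Gene-level FPKM does not separate its M1 and M2 splice forms.

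The scarce phosphofructokinase Pfkm fell in all 3 comparisons with Sham and averaged 1.54 FPKM in IUA+primed MSCs, 1.15 in IUA+control MSCs, 1.92 in IUA and 3.44 in Sham. Its call in IUA against Sham ended with median ratio scaling and with the epithelial covariate. It also ended without Sham replicate 1 or 2 or without IUA replicate 1. The liver form Pfkl, at 38.0 FPKM in IUA+primed MSCs, 37.6 in IUA+control MSCs, 27.9 in IUA and 25.7 in Sham, passed in IUA+primed MSCs against Sham alone (0.54 ± 0.22, limma adjusted p = 0.0495), a call that 15 of 21 alternative settings ended. The shares of the 3 phosphofructokinases did not pass (exact permutation adjusted p = 0.212). The second aldolase, Aldoc, fell in IUA and in IUA+control MSCs against Sham. Both calls ended with median ratio scaling, with the epithelial covariate and without Sham replicate 2. The call in IUA also ended without IUA replicate 1 or 3. That in IUA+control MSCs also ended with no filter and without Sham replicate 1 or IUA+control MSCs replicate 1 or 3. Aldoc held 0.733% of aldolase FPKM in IUA+primed MSCs, 0.591% in IUA+control MSCs, 0.645% in IUA and 1.36% in Sham (exact permutation adjusted p = 0.0181). Enolase shares also passed (exact permutation adjusted p = 0.0181), with Eno2 at 0.0963%, 0.0913%, 0.114% and 0.285% in the same groups. The level of Eno2 hardly differed, at 0.923, 0.87, 0.897 and 0.927 FPKM, so its share followed the rise of Eno1. The call of the enolase shares ended without IUA replicate 1, IUA+control MSCs replicate 1 or 2, or IUA+primed MSCs replicate 1 (adjusted p up to 0.0541).

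The 3 glucose transporters differed in direction against Sham. Slc2a1 (GLUT1; chromosome 4, 119108711 to 119137983), the main carrier of activated macrophages, had 147, 133 and 139 FPKM in IUA+primed MSCs, 137, 146 and 135 in IUA+control MSCs, 114, 130.4 and 87.9 in IUA and 98.1, 138 and 130.5 in Sham. The ranges of IUA and Sham overlapped. Slc2a1 passed in no comparison, and the interval (95%) of its log2 change was -0.32 to 0.33 for IUA+primed MSCs against IUA+control MSCs and -0.47 to 0.19 for IUA against Sham. It was 0.02 to 0.67 for IUA+primed MSCs against IUA and 0.01 to 0.67 for IUA+control MSCs against IUA, where the groups did not overlap and the adjusted p did not pass.

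Slc2a3 (GLUT3; chromosome 6, 122727809 to 122801640), a high-affinity carrier, had 9.19, 13.8 and 8.44 FPKM in IUA+primed MSCs, 23.1, 8.5 and 9.99 in IUA+control MSCs, 15.9, 65.8 and 21.75 in IUA and 118, 193 and 137 in Sham. Every Sham library exceeded every other library. Slc2a3 fell in IUA against Sham (-2.32 ± 0.46, limma adjusted p = 0.00135), and IUA+primed MSCs against IUA did not pass (-1.39 ± 0.46, adjusted p = 0.0531). IUA replicate 2, highest of its group for Slc2a3, also had the highest epithelial sum of its group (5494 FPKM), and with the epithelial covariate the change against Sham was -0.77 (adjusted p = 0.457). Slc2a6 (GLUT6; chromosome 2, 27021363 to 27027998), a lysosomal member of the family found in inflammatory macrophages, went the other way. It had 25.3, 18.3 and 17.3 FPKM in IUA+primed MSCs, 17.4, 28.2 and 18.1 in IUA+control MSCs, 24.01, 28.6 and 10.5 in IUA and 5.18, 3.95 and 4.21 in Sham. The 3 groups with the model overlapped and all lay above Sham (IUA against Sham 1.91 ± 0.31, limma adjusted p = 4.10e-04).

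Of the summed FPKM of the 3 transporters, Slc2a3 held 6.19% in IUA+primed MSCs, 7.95% in IUA+control MSCs, 19.2% in IUA and 53.8% in Sham. Slc2a1 held 82.0%, 79.9%, 68.4% and 44.5% in the same groups, and Slc2a6 11.8%, 12.1%, 12.3% and 1.69%. The shares differed among the 4 groups (exact permutation adjusted p = 0.00294, n = 3 each).

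At the end of the pathway, Ldha (chromosome 7, 46841475 to 46855627), the lactate dehydrogenase subunit that favours lactate formation, had 664, 698 and 775 FPKM in IUA+primed MSCs, 689.65, 811.5 and 661 in IUA+control MSCs, 591, 737 and 553 in IUA and 517, 624 and 605 in Sham. Ldha passed in no comparison, although both treated groups lay above Sham without overlap. Ldhb, the subunit of oxidative tissues, averaged 73.6 FPKM in IUA+primed MSCs, 79.1 in IUA+control MSCs, 97.4 in IUA and 138 in Sham. It fell in IUA+primed MSCs (-0.90 ± 0.23, limma adjusted p = 0.00476) and in IUA+control MSCs against Sham. The Ldhb call in IUA+control MSCs ended with median ratio scaling, and both ended with the epithelial covariate. The share of Ldha was 90.7% in IUA+primed MSCs, 90.0% in IUA+control MSCs, 86.4% in IUA and 80.9% in Sham (exact permutation adjusted p = 0.0468, and 0.0506 after a GC correction). That call also ended when any 1 library was left out other than Sham replicate 1 or IUA replicate 2 or 3 (adjusted p up to 0.0888).

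Among the regulators, Pdk1 (chromosome 2, 71873224 to 71903858), a kinase that closes pyruvate dehydrogenase and a HIF target, had 4.70, 5.40 and 5.40 FPKM in IUA+primed MSCs, 4.18, 6.74 and 5.38 in IUA+control MSCs, 4.24, 6.30 and 2.21 in IUA and 2.09, 1.75 and 2.23 in Sham. IUA replicate 3 fell within Sham. Pdk1 rose in each group against Sham, with 1.03 ± 0.25 in IUA+primed MSCs (limma adjusted p = 0.00369) and 0.72 ± 0.25 in IUA (adjusted p = 0.0272). The call in IUA ended in 8 alternative settings, among them the GC correction (0.61, adjusted p = 0.0645) and the omission of Sham replicate 1 or 2 or of IUA replicate 1 or 2 (0.44 to 0.74, adjusted p up to 0.114). Pfkfb3, which makes the activator of phosphofructokinase, had 29.2, 17.1 and 25.5 FPKM in IUA+primed MSCs, 19.5, 29.6 and 20.7 in IUA+control MSCs, 22.0, 18.5 and 13.65 in IUA and 22.7, 28.5 and 18.8 in Sham. All groups overlapped, and neither Pfkfb3 nor Pfkfb4 (2.90 to 7.89 FPKM) passed in any comparison.

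Pcx (chromosome 19, 4510472 to 4621752), pyruvate carboxylase, which feeds pyruvate into the citrate cycle, had 5.30, 5.27 and 3.52 FPKM in IUA+primed MSCs, 6.52, 2.22 and 1.52 in IUA+control MSCs, 2.37, 10.3 and 2.99 in IUA and 26.8, 47.6 and 50.7 in Sham. It was low in every library with the model (IUA against Sham -2.95 ± 0.47, limma adjusted p = 4.04e-04). The highest IUA value was again that of replicate 2, and with the epithelial covariate the change was -1.15 (adjusted p = 0.227).

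Hif1a (chromosome 12, 73901375 to 73947530), the oxygen-regulated subunit of the factor, had 192, 171 and 166 FPKM in IUA+primed MSCs, 153, 178 and 159 in IUA+control MSCs, 132, 129 and 115 in IUA and 113, 106 and 106 in Sham. Sham lay lowest and IUA just above it, and both treated groups lay above IUA without overlap. Hif1a rose in IUA+primed MSCs against IUA (0.49 ± 0.10, limma adjusted p = 0.00593) and in IUA+primed MSCs and IUA+control MSCs against Sham (0.69 ± 0.10 and 0.58 ± 0.10, adjusted p = 1.06e-04 and 3.76e-04). IUA+control MSCs against IUA (0.38 ± 0.10, adjusted p = 0.0773) and IUA against Sham (0.20 ± 0.10, adjusted p = 0.0893) did not pass.

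Egln3 (chromosome 12, 54178981 to 54203860) encodes PHD3, a hydroxylase of HIF1A that is itself induced by HIF. It had 4.26, 5.77 and 4.51 FPKM in IUA+primed MSCs, 3.82, 4.62 and 4.51 in IUA+control MSCs, 2.21, 4.07 and 1.55 in IUA and 0.59, 0.73 and 0.54 in Sham. Every Sham library was under 1 FPKM, and 9 of 12 libraries reached it. Egln3 rose in IUA against Sham (1.10 ± 0.22, limma adjusted p = 0.00127) and in IUA+primed MSCs against IUA (0.75 ± 0.22, adjusted p = 0.0315). The second call ended with no filter and in a fit to the compared groups alone. It also ended without IUA replicate 1 or 3 and without any 1 IUA+primed MSCs library. Egln1, which encodes the constitutive hydroxylase PHD2, averaged 3.67 ± 0.411 FPKM in IUA+primed MSCs, 5.47 ± 0.616 in IUA+control MSCs, 5.24 ± 1.54 in IUA and 6.65 ± 0.974 in Sham (SD, n = 3 each), and it fell in IUA+primed MSCs against Sham (-0.71 ± 0.18, adjusted p = 0.00478). The share of Egln3 in their summed FPKM was 57.1%, 60.0% and 53.2% in IUA+primed MSCs, 44.4%, 43.6% and 44.4% in IUA+control MSCs, 36.8%, 37.2% and 23.4% in IUA and 8.53%, 11.1% and 6.52% in Sham. The 4 groups did not overlap in this share (exact permutation adjusted p = 2.60e-04, from the smallest p possible).

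Of the 12 genes of the hypoxia group, 5 rose and 2 fell in IUA against Sham, with a median log2 change of 0.40 beside -0.35 for all tested genes. The share that passed was near the 56.2% of all tested genes. Bnip3 (chromosome 7, 138890836 to 138909519), which acts in the removal of mitochondria, had 78.4, 80.35 and 79.3 FPKM in IUA+primed MSCs, 68.3, 98.2 and 86.8 in IUA+control MSCs, 66.1, 101 and 67.55 in IUA and 32.1, 27.9 and 24.5 in Sham. Its 3 groups with the model overlapped and lay above Sham (IUA against Sham 1.42 ± 0.17, limma adjusted p = 1.05e-04). Mxi1 (chromosome 19, 53310518 to 53375810), a MYC antagonist, had 46.95, 44.9 and 37.45 FPKM in IUA+primed MSCs, 35.1, 32.1 and 35.1 in IUA+control MSCs, 37.8, 34.55 and 32.35 in IUA and 17.2, 19.2 and 16.4 in Sham. It rose in IUA against Sham (0.95 ± 0.11, adjusted p = 8.55e-05) and was, after Hk3, the gene of smallest p in IUA+primed MSCs against IUA+control MSCs (0.33 ± 0.11, adjusted p = 0.268, not passed).

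Ddit4 (chromosome 10, 59949669 to 59951834), a stress-induced inhibitor of mTORC1, had 6.98, 6.11 and 7.39 FPKM in IUA+primed MSCs, 3.83, 5.28 and 3.76 in IUA+control MSCs, 2.68, 3.29 and 0.60 in IUA and 1.91, 1.14 and 2.13 in Sham. The 3 IUA+primed MSCs libraries were the highest. Ddit4 rose in IUA+primed MSCs against IUA (1.41 ± 0.30, limma adjusted p = 0.00928), and without IUA replicate 3, its lowest library, the change was 0.97 (adjusted p = 0.0109). It did not pass in IUA against Sham (0.12 ± 0.30, adjusted p = 0.744).

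Ero1l (endoplasmic reticulum oxidase) and P4ha1 (collagen prolyl hydroxylase) rose in all 3 comparisons with Sham. Ero1l averaged 92.05 ± 8.04 FPKM in IUA+primed MSCs, 84.0 ± 9.63 in IUA+control MSCs, 114 ± 66.9 in IUA and 38.1 ± 4.34 in Sham, where the wide IUA spread came from replicate 2 at 191 FPKM. P4ha1 averaged 33.2, 34.9, 35.5 and 19.45 FPKM in the same groups. Car12, a membrane carbonic anhydrase, had 56.9, 5.64 and 19.8 FPKM in IUA+primed MSCs, 22.2, 8.49 and 9.49 in IUA+control MSCs, 4.95, 5.59 and 4.25 in IUA and 69.4, 24.75 and 97.8 in Sham. Its replicates were far apart in the treated groups and in Sham, and it fell in IUA against Sham (-3.26 ± 0.67, limma adjusted p = 0.00165). Ndrg1 averaged 126 FPKM in IUA+primed MSCs, 121 in IUA+control MSCs, 109 in IUA and 151 in Sham, and fell in IUA against Sham (-0.47 ± 0.12, limma adjusted p = 0.00729). That call ended with median ratio scaling and with the epithelial covariate. Ankrd37 (1.07 to 4.63 FPKM) passed in IUA+control MSCs against Sham alone (limma adjusted p = 0.0476), a call that 14 alternative settings ended, and Higd1a (41.7 to 66.6 FPKM), a mitochondrial protein, passed in no comparison.

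**Figure D4:**
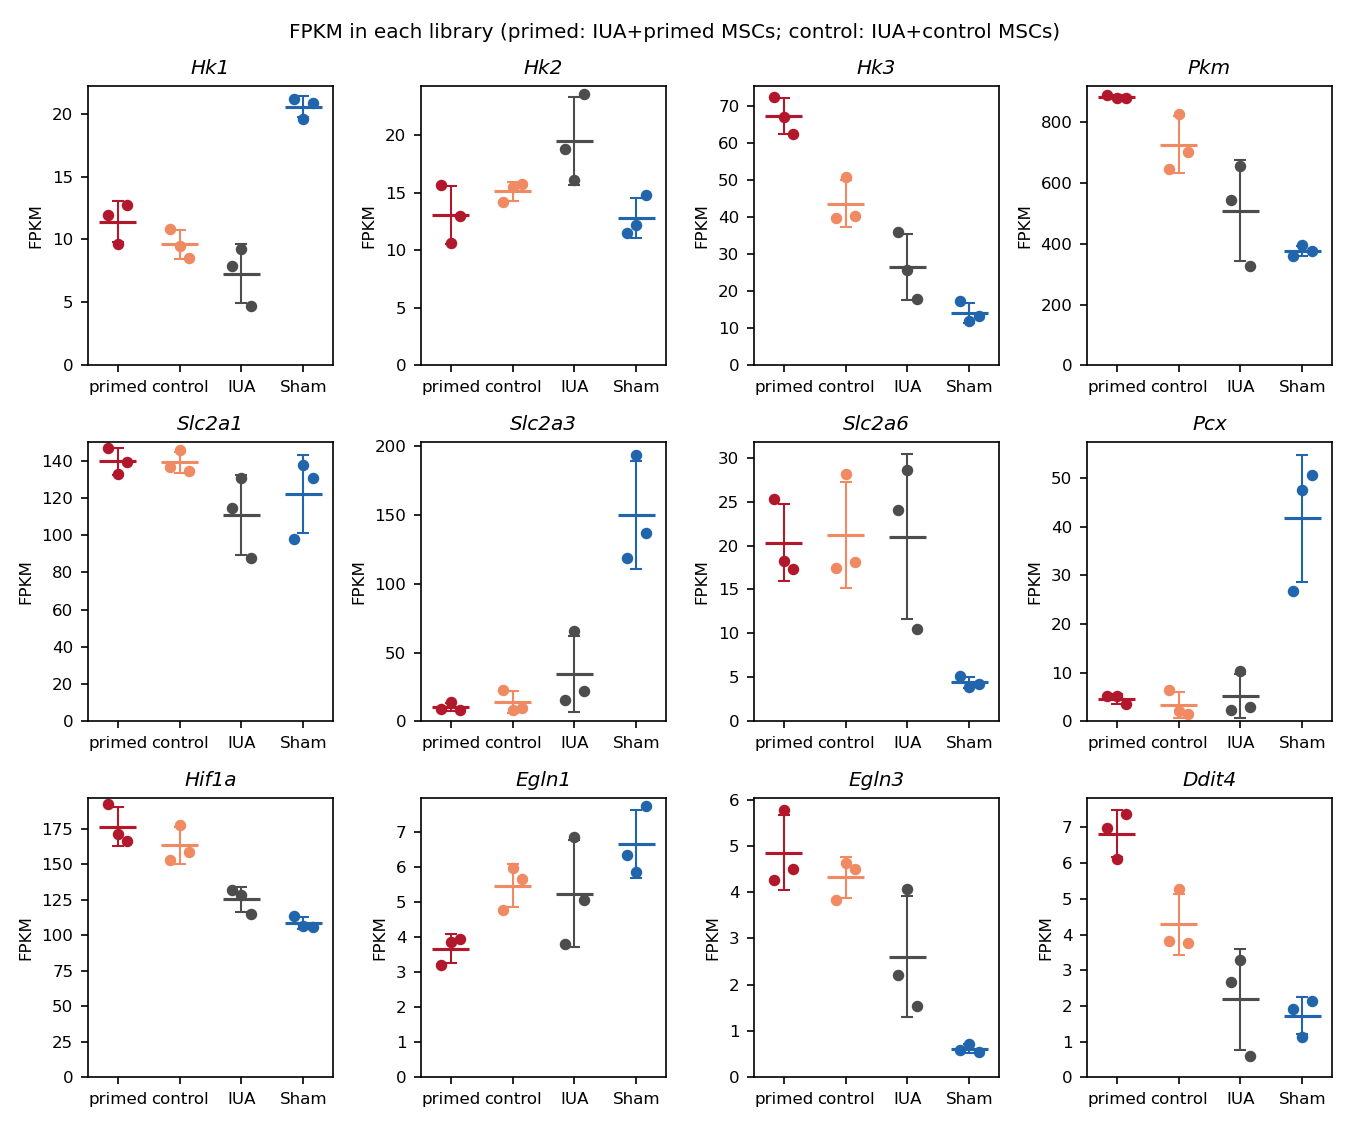
FPKM of 12 of the genes in each library (points), with the mean (wide bar) and SD (whiskers) of 3 libraries a group, on axes that start at 0. Hk3 and Ddit4 stand highest in IUA+primed MSCs, Slc2a3 and Pcx stand highest in Sham, and Slc2a1 overlaps between IUA and Sham.

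The comparison of IUA+primed MSCs with IUA asks what primed cells changed in mice with adhesions. Hk3, Hif1a, Ddit4, Pkm, Egln3 and Hk1 rose, Hk2 fell and 30 genes did not pass. That is 6 higher and 1 lower of 37, where 12.2% of all tested genes rose, 6.97% fell and 19.1% passed in either direction, so the share of these genes that passed (18.9%) was near that of the table. Their median log2 change was 0.20, beside -0.03 for all tested genes. In 13 of 37 the groups did not overlap, against 37.6% of all tested genes. Gapdh (0.46 ± 0.15, limma adjusted p = 0.055) and Slc2a3 (adjusted p = 0.0531) came closest without passing. The IUA group rests in part on replicate 3, the library with the strongest relation to GC content. Without it Hk3 (1.12), Hif1a (0.43), Ddit4 (0.97) and Pkm (0.56) still rose, and Egln3 (adjusted p = 0.113), Hk1 (0.117) and Hk2 (0.131) no longer passed. The calls of Egln3, Hk1 and Hk2 also ended in other settings, given above. After a GC correction all 7 passed, with adjusted p from 0.00293 for Hk3 to 0.0436 for Hk1. In the same comparison 4 of 11 macrophage and 3 of 11 dissociation markers rose, 2 of 9 endothelial, 2 of 8 stromal and 2 of 8 neutrophil markers fell, and 0 of 17 epithelial markers passed. The summed neutrophil markers were 1349, 311 and 816 FPKM in IUA+primed MSCs, 1081.5, 729 and 651 in IUA+control MSCs and 425, 354 and 325 in IUA, so that the sum was higher in every IUA+control MSCs library than in IUA and uneven in IUA+primed MSCs. The part of these cells in the result was not tested.

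**Figure D5:**
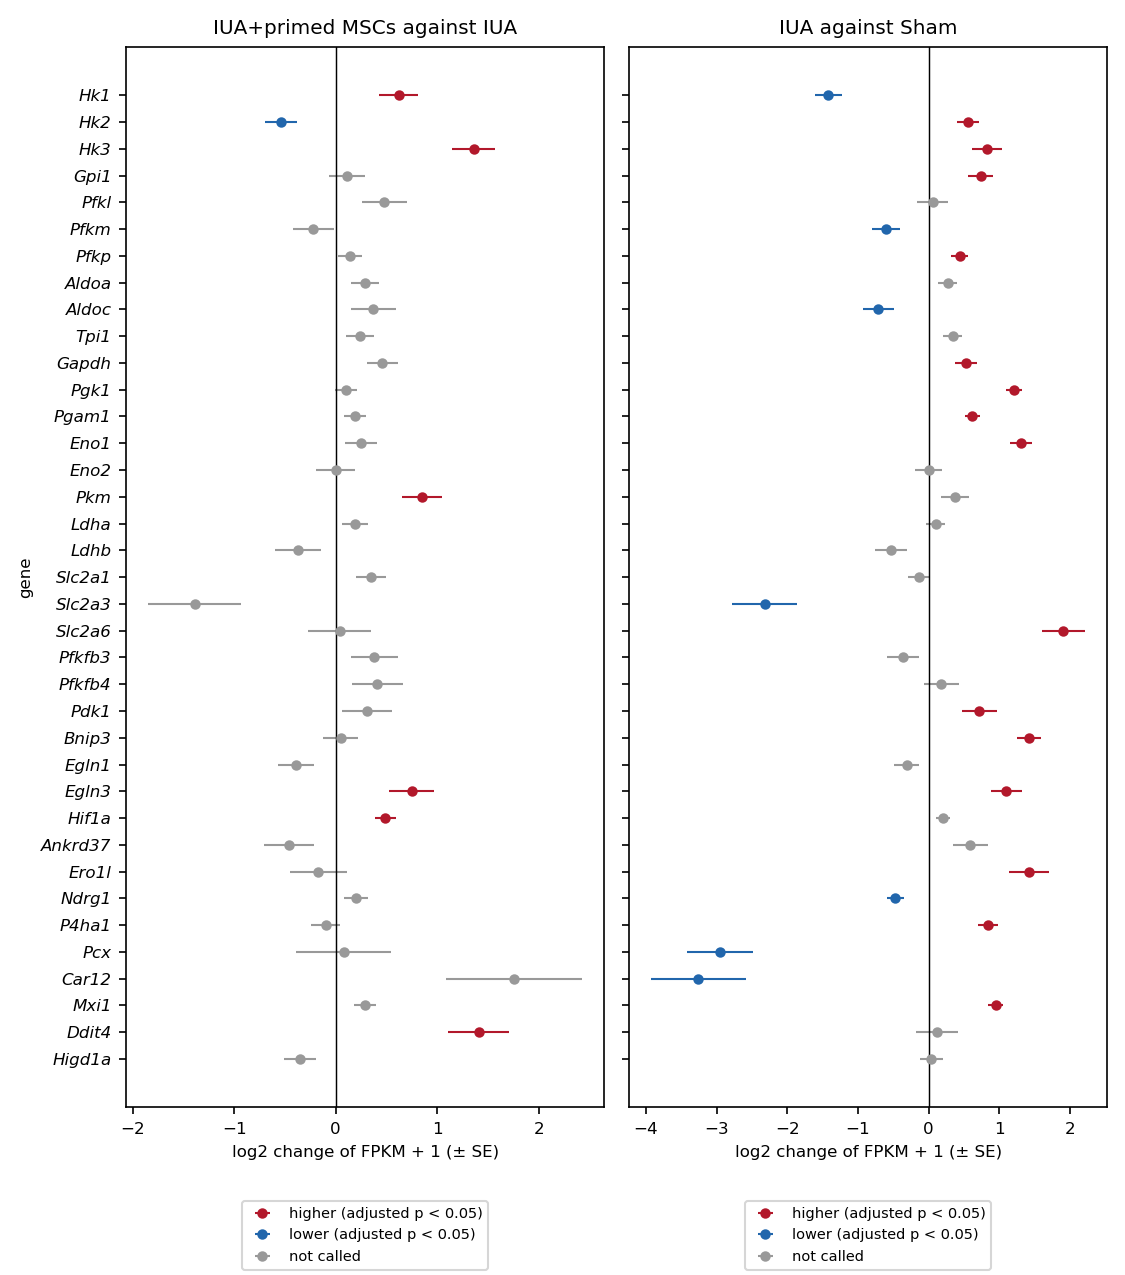
Log2 change of FPKM + 1 with its SE for each of the 37 genes, in IUA+primed MSCs against IUA (left) and in IUA against Sham (right), with x axes of different range. Colour marks genes with an adjusted p under 0.05. The left panel has 6 genes higher and 1 lower, and the right panel 15 higher and 7 lower.

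Control cells changed none of these genes past the threshold. In IUA+control MSCs against IUA 0 of 37 genes passed with limma, where 0.853% of all tested genes did (0.724% higher and 0.129% lower). At an unadjusted p under 0.05 there were 10 (8 higher and 2 lower), and 18.8% of all tested genes. The median log2 change was 0.15, beside 0.02 for all tested genes, and 8 of 37 did not overlap, against 22.1%. Primed and control cells compared directly gave 0 of 37 genes (limma), where 0.112% of all tested genes passed (0.0776% higher and 0.0345% lower). At an unadjusted p under 0.05 there were 3 (Hk3 and Mxi1 higher, Egln1 lower), and 12.9% of all tested genes. The median log2 change was 0.03, beside -0.03, and 6 of 37 did not overlap, against 25.2%. The interval (95%) of the log2 change in this comparison was 0.17 to 1.08 for Hk3 and -0.30 to 0.27 for Ldha. In a fit to the compared groups alone Hk3 passed (0.62, adjusted p = 0.0461).

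Genes of the same pathways outside the 37 were read from the same fit. Their results under the alternative settings were not read, so how far these calls hold is not known. Of 26 other genes of glycolysis and sugar handling, 16 were tested. In IUA against Sham 0 of them rose and 9 fell, among them Minpp1, Adpgk and G6pc3, where 11.1% of all tested genes rose and 45.0% fell. In IUA+primed MSCs against IUA 3 rose (Slc16a3, Adpgk and Slc2a8) and 2 fell (Galm and Bpgm). Of all tested genes 12.2% rose and 6.97% fell there. Slc16a3, the lactate exporter MCT4, had 179, 176 and 156 FPKM in IUA+primed MSCs, 66.5, 80.95 and 54.3 in IUA+control MSCs, 39.8, 42.3 and 5.32 in IUA and 15.1, 14.0 and 19.2 in Sham. IUA replicate 3 was the lowest of all 12 libraries, and the IUA+primed MSCs libraries were the highest. Slc16a3 rose in IUA+primed MSCs against IUA (2.94 ± 0.54, limma adjusted p = 0.00476) and did not pass in IUA+control MSCs against IUA (1.59 ± 0.54, adjusted p = 0.161). The size of both changes includes the low IUA replicate 3, and values without it or after the GC correction were not read.

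Of 39 other hypoxia genes, 35 were tested. In IUA against Sham 5 rose and 12 fell, with a median log2 change of -0.15, beside 11.1% higher, 45.0% lower and a median of -0.35 for all tested genes. In IUA+primed MSCs against IUA 5 rose (Arnt, Vegfa, Kdm4b, Hif1an and Egln2) and 3 fell (P4ha2, Bnip3l and Rora), and in IUA+control MSCs against IUA 3 rose (Arnt, Vegfa and Egln2). Of all tested genes 12.2% rose and 6.97% fell in the first of these, and 0.724% rose and 0.129% fell in the second. In the second, 84 of all tested genes rose with all libraries, and 5 without IUA+control MSCs replicate 2 or without replicate 3. Vegfa, the angiogenic growth factor and a HIF target, had 88.6, 79.7 and 75.9 FPKM in IUA+primed MSCs, 58.7, 68.0 and 66.0 in IUA+control MSCs, 40.9, 43.1 and 30.25 in IUA and 19.1, 22.4 and 17.5 in Sham. The 4 groups did not overlap. Vegfa rose in IUA+primed MSCs against IUA (1.09 ± 0.14, limma adjusted p = 8.60e-04) and in IUA+control MSCs against IUA (0.75 ± 0.14, adjusted p = 0.0403).

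Arnt, the partner subunit of HIF1A, averaged 33.85 ± 2.70 FPKM in IUA+primed MSCs, 25.0 ± 1.58 in IUA+control MSCs, 17.1 ± 1.06 in IUA (SD, n = 3 each), against 20.5 to 22.4 FPKM in Sham. It rose in IUA+primed MSCs against IUA (0.95 ± 0.10, limma adjusted p = 3.43e-04). Egln2, another HIF prolyl hydroxylase, averaged 41.2 ± 2.34, 29.1 ± 4.29 and 13.4 ± 3.42 FPKM in IUA+primed MSCs, IUA+control MSCs and IUA, against 22.3 to 26.1 FPKM in Sham. It rose in both treated groups against IUA (1.58 ± 0.17 and 1.08 ± 0.17, adjusted p = 3.39e-04 and 0.0156). Hilpda, a lipid droplet protein induced by hypoxia, averaged 978 ± 32.45 FPKM in IUA+primed MSCs, 935 ± 82.7 in IUA+control MSCs, 920.3 ± 83.8 in IUA and 250.3 ± 65.6 in Sham. It rose in IUA against Sham (1.90 ± 0.15, limma adjusted p = 6.13e-06).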

How the data were processed

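Values are FPKM, which the authors deposited in 1 table to 2 decimals. Per the submitters' processing notes the tools were fastp, HISAT2, StringTie, RSEM and DESeq2 on build mm10, with no versions. The library totals of FPKM ran from 505459.9 to 563751, read counts were not used and the depth is unknown, so no interval for counting error can be given. Genes at 1 FPKM or more in at least 3 libraries (11604 of 22294) were tested on log2(FPKM + 1) with limma 3.58.1 (R 4.3.3): 1 mean per group, all 12 libraries, a trended prior, 6 comparisons, and Benjamini-Hochberg adjustment over all tested genes at a threshold of 0.05. Shares within enzyme families were tested by exact permutation over 4 groups, since 3 against 3 cannot go below 0.1. Values in every library are given for up to 6 members of smallest p that passed in a comparison (2 where none passed) and for 9 key members, and for up to 3 genes of smallest p per other list and comparison; a few more were added after their values were seen. Members and lists were chosen with earlier results of these data known. Gene positions are from GENCODE (mm10). The fit was tested on simulated data. Alternatives were another pseudocount, filter, scaling, GC correction (lowess span 0.3), an epithelial covariate, a replicate block, the compared groups alone and each library left out. Other tools were Python 3.11.15, numpy 2.4.6, pandas 2.3.3 and matplotlib 3.10.9.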

Additional observations from a re-analysis of the deposited data

How the results depend on the processing

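With the epithelial covariate, 3 genes were higher and 0 lower in IUA against Sham, 6 and 0 in IUA+control MSCs against Sham, 6 and 0 in IUA+primed MSCs against Sham, 7 and 2 in IUA+primed MSCs against IUA, and 11 passed the F test. Among all tested genes, 282 were higher and 333 lower in IUA+control MSCs against Sham, from 1632 and 4960 without the covariate. In IUA+primed MSCs against Sham there were 361 and 632, from 1684 and 5219. In IUA+primed MSCs against IUA there were 1548 and 1036, from 1410 and 809. The median log2 change of the members stayed near its value without the covariate (0.24 against 0.27 in IUA, 0.50 against 0.54 in IUA+control MSCs and 0.53 against 0.58 in IUA+primed MSCs, each against Sham). That of all tested genes was -0.26 against -0.35, -0.20 against -0.30 and -0.22 against -0.33 in the same comparisons. The members thus lay above all tested genes by 0.50 against 0.62, 0.70 against 0.84 and 0.75 against 0.90. Median ratio scaling gave 21 higher and 4 lower in IUA against Sham, and 24 and 5 in IUA+control MSCs against Sham. It gave 23 and 6 in IUA+primed MSCs against Sham, and 6 and 2 in IUA+primed MSCs against IUA. With that scaling the median log2 change of the members in IUA against Sham was 0.58, against 0.27 as deposited. That of all tested genes was -0.09, against -0.35. The share of all calls that were higher was 42.8% against 24.8% as deposited in IUA+control MSCs against Sham, and 44.3% against 24.4% in IUA+primed MSCs against Sham. In IUA+primed MSCs against IUA, 0 were lower with no filter, with TPM scaling and in a fit to the compared groups alone, and 2 were lower with the GC correction. The fit to the compared groups alone called 1 higher in IUA+primed MSCs against IUA+control MSCs. The lactate dehydrogenase share had an exact permutation p of 0.038 after the GC correction (adjusted p = 0.0506). The cause was not tested.

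Leaving out each library in turn gave 14 to 20 higher and 5 to 8 lower in IUA against Sham, 0 to 1 higher and 0 lower in IUA+control MSCs against IUA, 4 to 10 higher and 0 to 3 lower in IUA+primed MSCs against IUA, 0 in IUA+primed MSCs against IUA+control MSCs, 18 to 22 and 5 to 8 in IUA+control MSCs against Sham, 19 to 21 and 6 to 9 in IUA+primed MSCs against Sham, and 25 to 30 by the F test. The exact permutation p ran from 6.49e-05 to 2.60e-04 for hexokinase, 0.0412 to 0.462 for phosphofructokinase, 0.00351 to 0.0295 for aldolase, 0.011 to 0.0353 for enolase, 0.0132 to 0.0666 for lactate dehydrogenase, 4.55e-04 to 0.00208 for the transporters, 0.232 to 0.785 for Pfkfb and 6.49e-05 to 1.30e-04 for the prolyl hydroxylases. Adjusted, the p crossed 0.05 for enolase (up to 0.0541), lactate dehydrogenase (up to 0.0888) and phosphofructokinase (down to 0.0471).

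The labels give all groups replicate numbers 1 to 3, and nothing shows that they pair the samples: correlations of same-numbered deviations ran from -0.293 to 0.288, with 3 of 18 over 0.1. With the replicate block there were 15 higher and 8 lower in IUA against Sham, 0 and 0 in IUA+control MSCs against IUA, 6 and 1 in IUA+primed MSCs against IUA (without Hk1), 0 and 0 in IUA+primed MSCs against IUA+control MSCs, 20 and 8 in IUA+control MSCs against Sham, and 19 and 7 in IUA+primed MSCs against Sham. Single gene results were followed for every call and for the members of smallest p where none passed, 87 in all. Of these 0 reversed, and 21 had the same outcome under every alternative run. Among the 21, Hif1a in IUA+control MSCs against IUA and Mxi1 in IUA+primed MSCs against IUA+control MSCs had no call to hold. With the epithelial covariate 61 lost their call, some with a change of about the same size. The unknown depth limits what can be said of genes near 1 FPKM, such as Eno2, Egln3 and Ddit4.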

Other observations

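Genes beside glycolysis were read from the same fit, and their results under the alternative settings were not read. Of 6 tested genes of the pentose phosphate pathway, which makes NADPH, 2 rose (Taldo1 and Pgd) and 3 fell (Rpe, G6pdx and Pgls) in IUA against Sham, and 2 rose (Pgd and G6pdx) in IUA+primed MSCs against IUA. Of all tested genes 11.1% rose and 45.0% fell in the first comparison, and 12.2% rose and 6.97% fell in the second. G6pdx, the entry enzyme, averaged 43.4 ± 2.50 FPKM in IUA+primed MSCs and 27.1 ± 2.93 FPKM in IUA (SD, n = 3 each), a log2 change of 0.66 ± 0.12 (limma adjusted p = 0.00427). Pgd averaged 76.4 ± 5.16 FPKM in IUA+primed MSCs and 56.5 ± 6.58 FPKM in IUA (0.43 ± 0.11, limma adjusted p = 0.021).

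Of 17 tested genes of the pyruvate dehydrogenase complex and mitochondrial pyruvate use, 12 fell and 1 rose (Mpc1, a subunit of the mitochondrial pyruvate carrier) in IUA against Sham, with a median log2 change of -0.61 beside -0.35 for all tested genes. Of all tested genes 45.0% fell and 11.1% rose there. Pdha1, the catalytic subunit of the complex, averaged 38.1 ± 5.31 FPKM in IUA and 69.3 ± 4.97 FPKM in Sham (-0.85 ± 0.11, limma adjusted p = 1.21e-04). In IUA+primed MSCs against IUA Mpc1 fell to 129 ± 5.45 FPKM, against 178 ± 16.9 FPKM in IUA (-0.45 ± 0.10, limma adjusted p = 0.00925). The lower epithelial markers of IUA against Sham stand beside these values too, and their part was not tested.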
